A study of Caenorhabditis elegans with 2 samples.

Results

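The genes described here mostly encode translation initiation and elongation factors of the nematode Caenorhabditis elegans. They were taken as every protein-coding gene of the Ensembl annotation whose symbol begins with eif-, eef-, ife-, ifg-, iff-, eftu- or tufm-, which gave 42 of the 19973 protein-coding genes on the nuclear chromosomes. Among them are 30 initiation factor genes, 8 genes for eEF1, eEF2 and eIF5A, and 2 genes for the mitochondrial factor EF-Tu. The symbols also caught eif-4A3, which encodes the RNA helicase of the exon junction complex, and eftu-2, which encodes a GTPase of the U5 snRNP, and both act in RNA processing. The rule left out factors with other symbols, such as the mitochondrial elongation factor gene gfm-1. Some of those were counted among the other translation genes below.

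ChIP-seq, the sequencing of DNA recovered with a chromatin protein, had been used to locate the homeodomain protein CEH-88 in L1 larvae of age 6 h, bleached for synchrony and then starved. The strain, OP593, carries the array wgIs593, where TY1, EGFP and 3xFLAG tags are joined to ceh-88 beside an intact unc-119 gene, in animals that also carry the allele unc-119 (tm4063). An antibody against GFP recovered the tagged protein from sheared chromatin of 200 to 800 bp. There was 1 group of 2 biological replicates, numbered 1 and 2, and no control sample. The measurements allow a description of where peaks lie and a comparison of the replicates. They allow no contrast between conditions and no comparison with chromatin recovered without the tagged protein. All values below concern the tagged protein made from a transgene, and since the chromatin came from whole larvae, the cells in which a promoter was bound were not resolved.

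Translation starts when initiation factors place the small ribosomal subunit and the initiator tRNA on an mRNA. The GTPase eIF2 carries the tRNA and is recharged by the exchange factor eIF2B, the large complex eIF3 holds the small subunit, and eIF4E binds the cap while eIF4G joins it to the ribosome. During elongation eEF1A delivers aminoacyl-tRNAs, the eEF1B complex recharges eEF1A with GTP, eEF2 moves the ribosome along the mRNA, and eIF5A helps it past difficult sequences.

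A peak in the deposited lists is a region past a threshold on the irreproducible discovery rate (IDR), which measures how well a region's rank is repeated between lists. A gene was counted as bound when the summit of such a peak lay in its promoter window, which opens 1000 bp before any of its annotated transcript starts and ends 200 bp after it. The main list was the one the authors call conservative, with 1171 peaks. Peak strength is given as the deposited signal, in the peak caller's own units, which have no stated scale between lists. The median signal of the conservative list was 115.1. Read depth was not given, so the depth behind each value is unknown. Coordinates are those of assembly ce11, and distances are to the nearest annotated start of the gene, negative when upstream.

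In the conservative list, 10 of the 42 genes were bound, which is 23.8% (exact Clopper-Pearson 95% interval 12.1 to 39.5). Over all protein-coding genes the share was 4.73%, or 945 genes. The 10 genes were eif-2Bgamma, eif-3.B, eif-3.C, eif-3.E and ife-2 among the initiation factors, and iff-2, eef-1A.1, eef-1A.2, eef-1B.1 and eef-1G in the group of eEF1, eEF2 and eIF5A. Each had 1 peak in its window. The interval covers the counting of genes only. Genes of a pathway are not independent draws, and no test of the list was made.

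The bases at 6 of these 10 summits are shown because the values below refer to them. Each stretch holds a conservative summit with 50 bases on either side, from the RefSeq copy of ce11, read 5′ to 3′ on the strand of the gene. In the first 5 stretches, capitals mark matches on either strand to 6 searched hexamers and to CGCAAA, the hexamer found at the most of these genes. In eif-3.B the match to TATAAA overlaps a match to its reverse complement. In the last stretch, that of eif-2Bgamma, capitals mark instead the bases that lie inside the small nuclear RNA gene sup-39, and hexamers are not marked. The stretches at eef-1B.1 and eef-1G overlap untranslated exons and are not printed, and those of eif-3.C and eif-3.E are not shown here.
iff-2 (chrII:8561375-8561475, minus strand, eIF5A): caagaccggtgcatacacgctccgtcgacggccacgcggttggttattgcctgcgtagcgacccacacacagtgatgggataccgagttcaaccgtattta
eif-3.B (chrII:14795081-14795181, plus strand, an eIF3 subunit): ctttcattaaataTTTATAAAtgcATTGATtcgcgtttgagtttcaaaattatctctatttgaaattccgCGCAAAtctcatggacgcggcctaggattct
eef-1A.1 (chrIII:6972048-6972148, minus strand, eEF1A): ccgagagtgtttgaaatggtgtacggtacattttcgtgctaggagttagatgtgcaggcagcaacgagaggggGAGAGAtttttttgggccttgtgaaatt
eef-1A.2 (chrX:7823265-7823365, plus strand, eEF1A): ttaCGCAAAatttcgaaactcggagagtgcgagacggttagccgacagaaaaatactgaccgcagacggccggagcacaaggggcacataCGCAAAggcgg
ife-2 (chrX:382819-382919, minus strand, an eIF4E): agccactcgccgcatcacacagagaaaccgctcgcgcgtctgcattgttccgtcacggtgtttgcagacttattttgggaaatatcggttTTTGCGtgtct
eif-2Bgamma (chrII:6968485-6968585, minus strand, an eIF2B subunit): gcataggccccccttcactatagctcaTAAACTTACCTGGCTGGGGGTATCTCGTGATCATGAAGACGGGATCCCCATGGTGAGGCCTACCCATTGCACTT

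The count of bound genes was the same in every thresholded list, although the genes differed slightly. In replicate 1, 10 of 42 genes were bound, against 4.66% of all genes, and in replicate 2 again 10, against 3.09%. The other thresholded list for the whole series also gave 10, the same genes as the conservative list, against 5.25%. Over the 4 lists together, 11 genes were bound in at least 1, 9 in both replicates and 8 in all 4. The 3 that were not bound in all 4 were ife-2, missing from replicate 2, eif-2Bgamma, missing from replicate 1, and eef-2, present in both replicates and missing from both whole-series lists. Of all 19973 protein-coding genes, 512 were bound in both replicates and 1036 in at least 1 replicate. The shares of all genes bound in all 4 lists, or in at least 1 of the 4, are not given here.

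**Figure D1:**
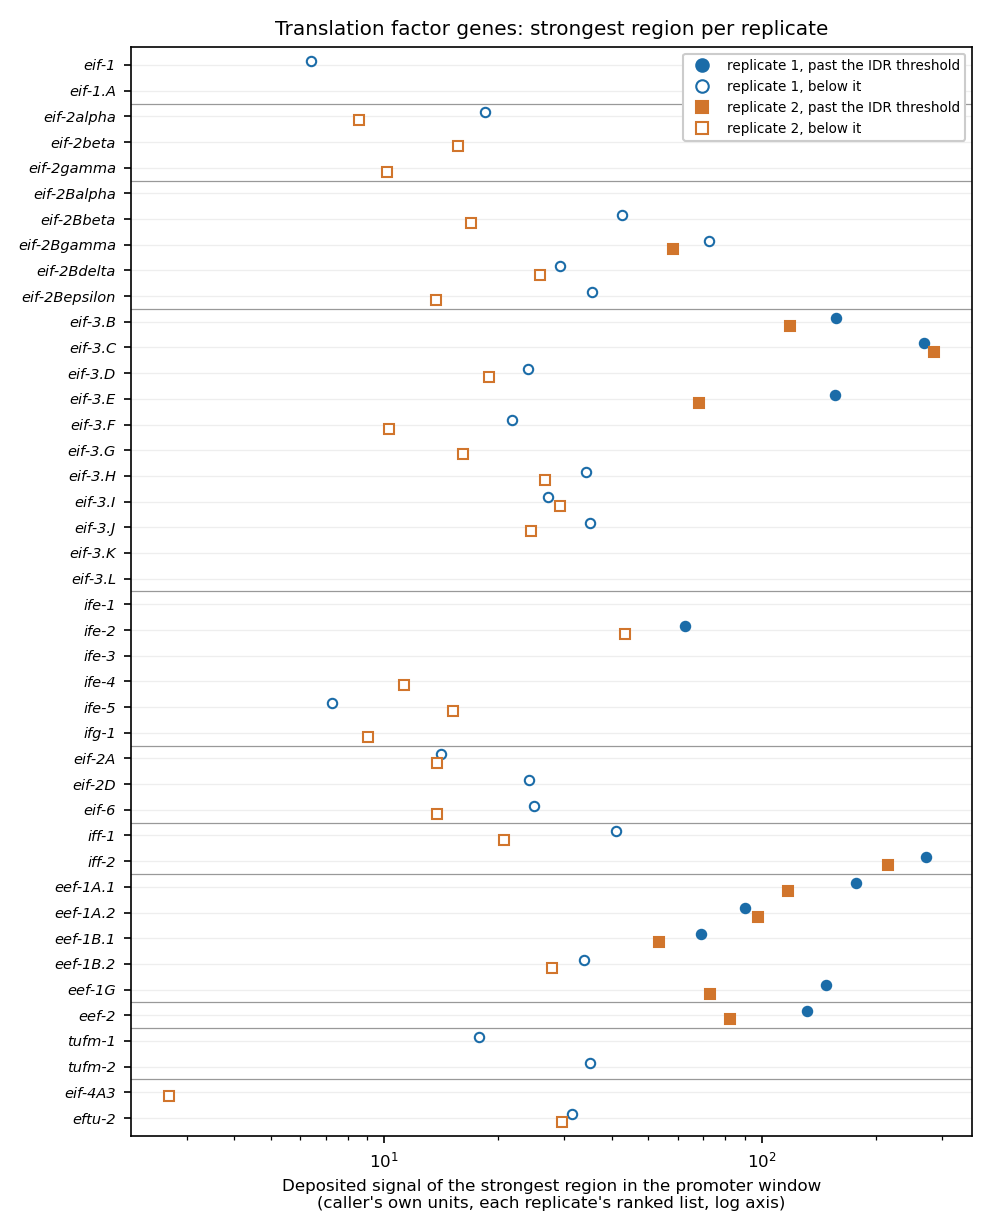
Signal of the strongest region in the promoter window of each of the 42 genes (log axis, caller's own units), in the ranked list of replicate 1 (circles) and replicate 2 (squares). Symbols are filled where the gene was called in the thresholded list of that replicate, and lines separate factor groups. A gene without symbols has no listed region with its summit in the window. Symbols are filled in both replicates for iff-2, eef-1A.1, eef-1A.2, eef-1B.1, eef-1G and eef-2 in the lower part, where eef-1B.2 is open.

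The eEF1 and eIF5A genes held 5 of the 10 peaks. In the conservative list 5 of the 8 genes for eEF1, eEF2 and eIF5A were bound (62.5%, exact interval 24.5 to 91.5), and in each replicate 6 of 8, the sixth being eef-2. Of the initiation factor genes 5 of 30 were bound (16.7%, exact interval 5.64 to 34.7). The intervals overlap, and this grouping was made after the values had been seen, so the difference was not tested. Neither mitochondrial gene, tufm-1 or tufm-2, was bound, nor were eif-4A3 and eftu-2.

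The gene iff-2 (WBGene00002065) encodes eIF5A, the factor that carries the modified amino acid hypusine. Its peak had a signal of 501.9 and ranked 36 of 1171. The signal in the replicates' own ranked lists was 271.7 in replicate 1 and 216.4 in replicate 2. Both replicates placed it among their strongest regions, at rank 33 in replicate 1 and rank 40 in replicate 2. The peak, at chrII:8561330-8561547, had an intergenic summit 58 bp upstream of the iff-2 start. The summit was also 877 bp upstream of F54C9.14, which reads in the opposite direction.

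The other eIF5A gene, iff-1 (WBGene00002064), is known for its role in the germ line and was not bound. Its strongest region, 155 bp upstream, had a signal of 58.7 in the ranked list that belongs to the conservative list. In the replicates the signal was 41 and 20.8. The score of the region, which is at least 830 for every peak past the threshold, was 310. Within this pair of paralogs the signal was thus higher at iff-2 in all 3 lists.

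Both genes for eEF1A, the GTPase that brings aminoacyl-tRNA to the ribosome, were bound. At eef-1A.1 (WBGene00001168), whose promoter is widely used to drive transgenes in most worm tissues, the signal was 297.4, rank 119. It was 177.6 in replicate 1 and 117.5 in replicate 2. The summit of this peak, chrIII:6971900-6972295, lay 386 bp upstream of eef-1A.1 and 155 bp upstream of rfc-4, a subunit of the replication factor C clamp loader. This was the one bound gene of the 10 for which the start of another protein-coding gene was nearer. A microRNA gene, cel-mir-5549, lay 13 bp from the summit.

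At eef-1A.2 (WBGene00001169) the signal was 178.8, rank 309. It was 90 in replicate 1 and 97.9 in replicate 2. This made eef-1A.2 one of only 2 of the 10 genes, with eif-3.C, at which replicate 2 had the higher value. The peak lay at chrX:7823117-7823512 with an intergenic summit 339 bp upstream, and the noncoding RNA gene R03G5.8 began 70 bp away. No other coding gene had this summit in its window.

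The eEF1B complex exchanges GDP for GTP on eEF1A. The peak at eef-1G (WBGene00008920), the gamma subunit, had a signal of 224.7, rank 209, with 147.5 in replicate 1 and 73 in replicate 2. This peak lay at chrV:10965615-10965748. Its summit was 33 bp upstream of eef-1G and 147 bp upstream of ctf-4, which reads in the opposite direction. At eef-1B.1 (WBGene00018846) the signal was 128.3, rank 505, with 69.1 in replicate 1 and 53.3 in replicate 2. This summit was the one of the 10 that did not lie upstream. It fell 1 bp past the start, in the 5′ untranslated exon and inside the noncoding RNA gene F54H12.9. The peak, at chrIII:7973187-7973582, had this summit 332 bp upstream of aco-2, which encodes mitochondrial aconitase.

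The paralog eef-1B.2 (WBGene00012768) was not bound. Its strongest region had a signal of 57.2 in the conservative ranked list, 33.8 in replicate 1 and 27.8 in replicate 2, with the summit 261 bp upstream. The score of 683 was the second highest among genes with no peak, after eftu-2 at 708. Of the 5 eEF1 genes, eef-1B.2 alone had no peak in any of the 4 lists.

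The gene eef-2 (WBGene00001167) encodes the translocase of elongation and was called in both replicates. In replicate 1 the peak at chrI:9163337-9163686 had a signal of 131.4, rank 216 of 1128, with its summit 19 bp upstream of a start. In replicate 2 the peak at chrI:9163319-9163678 had a signal of 82.4, rank 275 of 698, with its summit 32 bp upstream. In both replicates these values lie between those of the bound genes eef-1G and eef-1A.2. Neither whole-series ranked list as used here holds a summit in the window of eef-2. The nearest region, with its summit 326 bp downstream of a start, had a signal of 4.17. Of the 546 replicate 1 peaks that touch a replicate 2 peak, 4 touch no conservative peak, and eef-2 is 1 of 2 that touch no region of either whole-series ranked list. Over all genes, 512 were bound in both replicates and 7 of them were not bound in the conservative list. Why eef-2 is missing there was not tested. Both summits lie between eef-2 and clsp-1, which reads away from eef-2 and begins 265 bp off. They are thus in the window of clsp-1 as well, and the peak could not be assigned to 1 promoter.

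**Figure D2:**
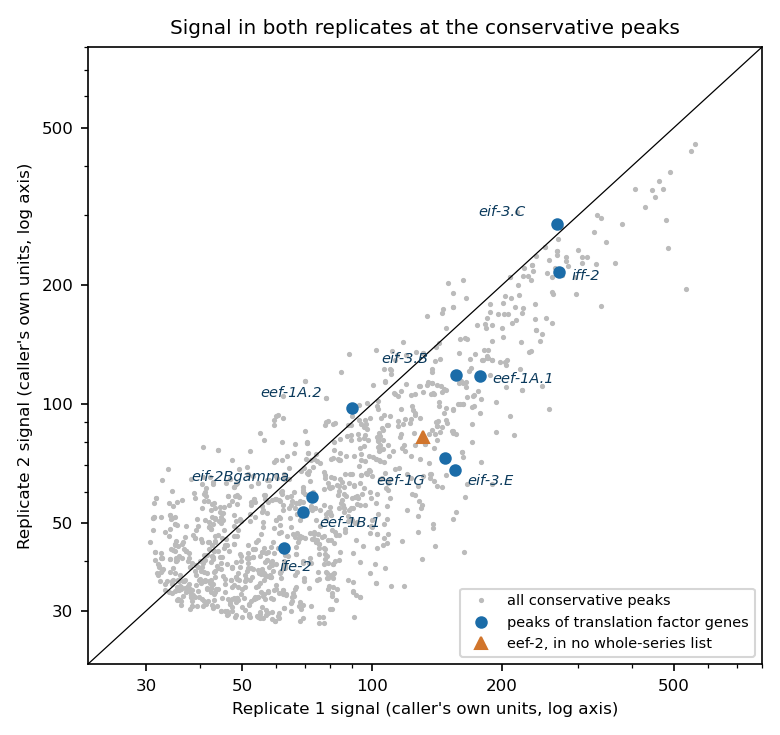
Signal in replicate 1 (x axis) and replicate 2 (y axis), both on log axes in the caller's own units, at the 1152 conservative peaks with a region in both ranked lists (grey) and at the peaks of the 10 bound translation factor genes (blue). The orange triangle is eef-2 and the line marks equal values. The genes lie within the cloud, 8 of 10 below the line, with eif-3.C and iff-2 near its upper end.

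The eIF3 complex is the scaffold of the initiation machinery, and 3 of its 11 genes were bound (27.3%, exact interval 6.02 to 61). The strongest peak at any translation factor gene was that of eif-3.C (WBGene00001226), at chrI:9979814-9980019. Its signal was 546.5, rank 22 of 1171, with 268.8 in replicate 1 and 285.3 in replicate 2, ranks 35 and 15 of the ranked lists. The intergenic summit lay 249 bp upstream of eif-3.C, in the stretch of 401 bp that follows sys-1 on the same strand. At eif-3.B (WBGene00001225), a scaffold subunit of the conserved core of eIF3, the signal was 270.3, rank 140. It was 156.9 in replicate 1 and 118.4 in replicate 2. The peak was at chrII:14794933-14795328 with its summit 273 bp upstream, and no other coding gene had this summit in its window. At eif-3.E (WBGene00001228) the signal was 213.9, rank 222, with 155.9 in replicate 1 and 68 in replicate 2. This gene had the widest gap between the replicates of the 10. The peak was at chrI:10642452-10642555, with its summit 204 bp upstream of eif-3.E and 544 bp upstream of the oppositely directed B0511.17.

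None of the other 8 eIF3 genes was bound in any thresholded list. Among them eif-3.J had the highest signal in the conservative ranked list, 56.1 at 956 bp upstream. In replicate 1 its strongest region had a signal of 35, with a summit at a different position, 826 bp upstream. The genes eif-3.K and eif-3.L had no listed region with its summit in the window in either replicate.

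The remaining 2 bound initiation factors each missed the threshold in 1 replicate. ife-2 (WBGene00002060) encodes an eIF4E isoform of the soma, and its peak at chrX:382671-383066 had a signal of 100.3, rank 702, below the median of the list. It was 62.6 in replicate 1 and 43.3 in replicate 2, where the score of 478 did not reach the threshold. The summit lay 160 bp upstream. Among the other cap-binding genes and ifg-1, which encodes eIF4G, none was bound. For ife-3 a conservative summit lay 1095 bp upstream, just outside the window, with a signal of 119.7. The bound summit farthest upstream was that of eif-2Bgamma, at 887 bp.

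At eif-2Bgamma (WBGene00004090), which encodes a subunit of eIF2B, the signal was 136.2, rank 469. It was 72.6 in replicate 1, where the score of 651 did not pass, and 58.1 in replicate 2, where it passed with a score of 1000. The summit, 887 bp upstream, lay in an intron of C15F1.5, the gene that precedes eif-2Bgamma on the same strand with a gap of 252 bp. As the capitals in the printed stretch show, the summit also fell inside sup-39, a gene for the U1 small nuclear RNA of splicing, and inside the noncoding RNA gene C15F1.14. The start of eif-2Bgamma was the nearest protein-coding start, but binding to the RNA genes and binding that belongs to eif-2Bgamma cannot be told apart. The other 4 eIF2B genes and the 3 eIF2 genes were not bound. Of these eif-2Bbeta had the highest signal, 54.4 at 145 bp upstream, with 42.7 in replicate 1 and 17 in replicate 2. Its replicate 1 score of 750 was the highest among the 31 translation factor genes bound in no thresholded list.

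The bound genes stood high in the list. Of the 10 peaks, 9 were above the median signal of 115.1, 6 were among the strongest 25% and 2, those of eif-3.C and iff-2, among the strongest 10%. The median signal was 219.3, against 133.1 over the 935 other bound genes and 170.0 over the 45 bound ribosomal protein genes. The range at the 10 genes, 100.3 at ife-2 to 546.5 at eif-3.C, spanned those medians.

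The replicates placed the summits within 5 to 36 bp of each other. Signal was higher in replicate 1 at 8 of the 10, where 76.8% of all conservative peaks were higher in it. The median log2 ratio of replicate 1 to replicate 2 was 0.39 at these genes and 0.36 over the 1152 conservative peaks with both values, whose ratios had an SD of 0.50. The largest ratio, 1.20 at eif-3.E, was at the 95th percentile of all peaks, and the smallest, −0.12 at eef-1A.2, was above their 5th percentile of −0.48. With 2 replicates the difference between them has no error of its own.

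**Figure D3:**
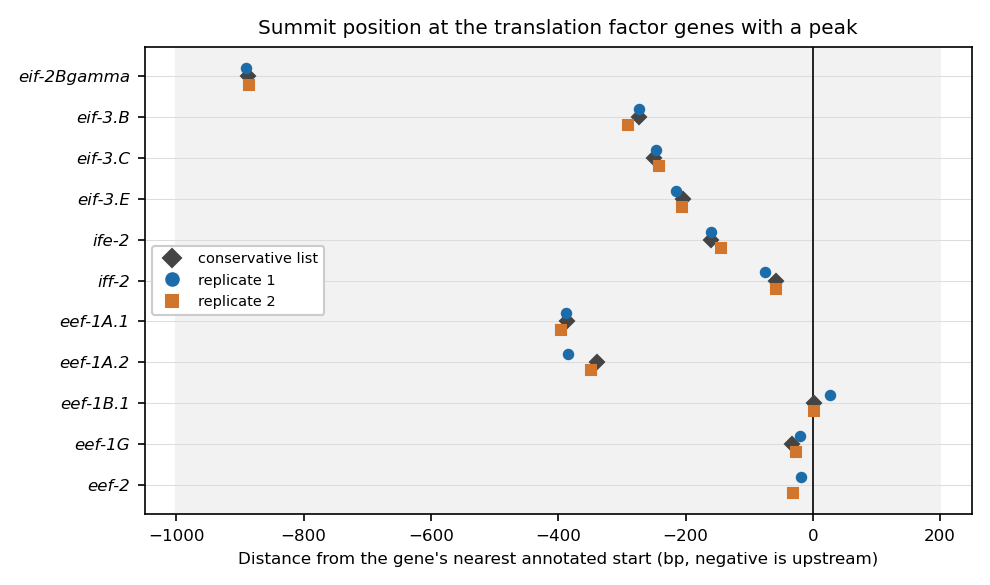
Distance of the summit from the nearest annotated start of each gene (bp) in the conservative list (diamonds), replicate 1 (circles) and replicate 2 (squares). For each gene the replicate symbols show the strongest region of the ranked list, and the shaded band is the promoter window. Apart from eif-2Bgamma at 887 bp, the summits lie within 395 bp of the start.

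Summits lay mostly just upstream of the genes. The median distance was −226.5 bp for the 10 genes and −248.0 bp for all bound genes, and 9 of 10 summits were upstream. In 9 cases the start of the bound translation factor gene was also the nearest protein-coding start. The summit was in the window of a second coding gene at 5 of the 10, eif-3.E, iff-2, eef-1A.1, eef-1B.1 and eef-1G, against 56.9% of all bound genes. For these genes the peak could not be assigned to 1 promoter. Upstream neighbours were of 3 kinds among the 42 genes. Of 22 genes with an oppositely directed neighbour within 1000 bp, 5 were bound, against 12.8% of all genes so placed. Of 7 genes with a same-strand neighbour within 500 bp, 2 were bound, eif-2Bgamma and eif-3.C, against 3.3% of all such genes. Of the 13 with neither, 3 were bound, eif-3.B, ife-2 and eef-1A.2, against 2.93%.

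Bound genes were found on 5 of the 6 chromosomes: 2 of 13 genes on I, 3 of 12 on II, 2 of 8 on III, 1 of 4 on V and 2 of 3 on X, with neither of 2 genes bound on IV. Over all protein-coding genes the bound share was 6.71% on I, 5.16% on II, 7.54% on III, 4.42% on IV, 2.9% on V and 3.11% on X. The 2 on X were eef-1A.2 and ife-2, and counts this small allow no comparison between chromosomes.

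The remaining 31 genes had no peak summit in the window in any thresholded list, and weak regions were common among them. Ranked lists, which also hold regions below the threshold, had a summit in the window of 30 of the 42 genes in replicate 1, 32 in replicate 2 and 31 in the list that belongs to the conservative one. Over all genes the shares were 69%, 74.2% and 81.2%, so that a listed weak region is the usual state of a promoter. Of the 31 genes, 19 had a region in replicate 1, with signals from 6.4 to 42.7 and a median of 27.1. In replicate 2 there were 21, from 2.69 to 29.6 with a median of 15.7. In the conservative ranked list there were 21, from 7.87 to 58.7 with a median of 37.4. The highest values in this list were those of iff-1, eef-1B.2, eif-3.J, eftu-2 (55) and eif-2Bbeta. All were below the lowest signal among the bound translation factor genes, 100.3 at ife-2. Peaks elsewhere in the conservative list had signals down to 2.04, so signal alone does not separate bound from unbound genes. No region in any of these lists had its summit in the window of eif-1.A, eif-2Balpha, eif-3.L, ife-1 or ife-3. At ife-3 a conservative peak reached into the window with its summit outside. Of these genes, eif-1.A encodes eIF1A, a factor of start codon selection.

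Other gene groups of translation were bound to different extents. Ribosomal protein genes were bound in 45 of 81 cases (55.6%, exact interval 44.1 to 66.6), and their interval did not overlap that of the translation factor genes. Cytosolic and mitochondrial aminoacyl-tRNA synthetase genes, which charge tRNAs, were bound in 3 of 32 cases (9.38%, exact interval 1.98 to 25). Of 28 other translation genes, drawn from a list of 38 symbols of which 10 were not matched in the annotation, 5 were bound (17.9%, exact interval 6.06 to 36.9). These shares are set side by side as descriptions, and the differences were not tested.

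**Figure D4:**
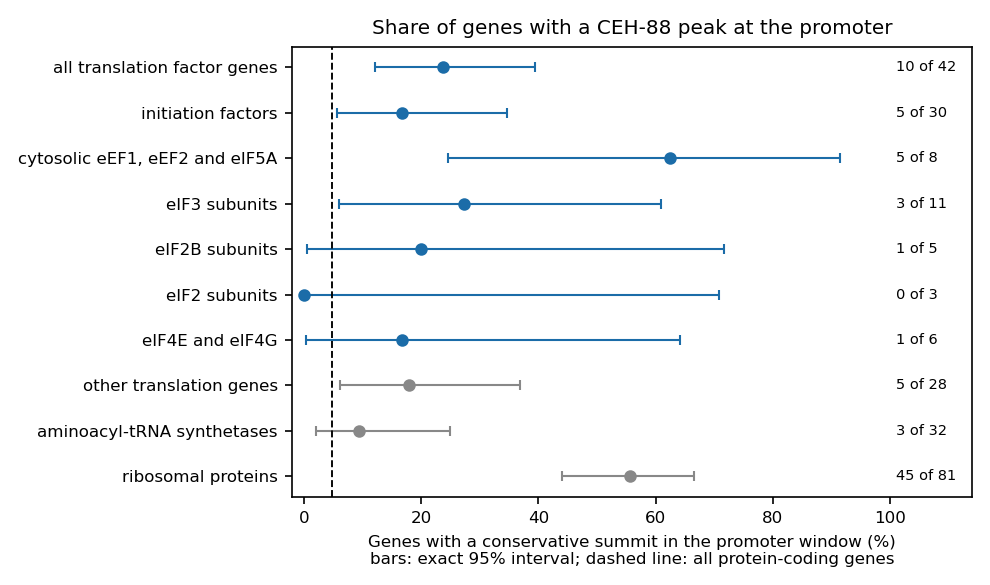
Percentage of genes with a conservative summit in the promoter window for the 42 translation factor genes and their groups (blue) and for other gene groups (grey). Bars are exact 95% intervals over genes, counts stand at the right, and the dashed line is the share of all protein-coding genes, 4.73%. The group of eEF1, eEF2 and eIF5A lies at 62.5% and ribosomal proteins at 55.6%.

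The 5 other translation genes had their peaks in promoters that they share, and the signal was above the list median of 115.1 at all but gfm-1. drr-2, which encodes a homologue of the helicase cofactor eIF4H, had a signal of 383.9, with 203.5 in replicate 1 and 187.4 in replicate 2. Its summit was 147 bp upstream of drr-2 and 199 bp upstream of set-16. ifet-1, which encodes a translational repressor that binds eIF4E, had 382.0 from a summit 518 bp upstream, and this summit was 250 bp upstream of the ribosomal protein gene rps-1. larp-1, which encodes an RNA-binding protein of the La-related family, had 366.7 at 671 bp upstream, with wip-1 nearer at 318 bp. abcf-2, which encodes an ABCF ATPase, had 303.9 at 900 bp upstream, with ant-1.1 nearer at 25 bp. gfm-1, which encodes the mitochondrial elongation factor G, had 109.5, with 74.9 in replicate 1 and 46.8 in replicate 2, and was not called in replicate 2. In all 5 cases a second coding gene had the summit in its window, and for ifet-1, larp-1 and abcf-2 that gene was the nearer one.

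Of the 6 hexamers searched on both strands, none occurred at more than 1 of the 10 genes. Each was also rare at promoter summits in general, at 2.67% to 16.5% of them, so these counts set the 10 genes apart in nothing. TAATTA, the core that many homeodomains bind, was at 0 of 10, against 2.67% of the 711 conservative summits in promoter windows, and ATCGAT was at 0 of 10, against 4.5%. ATTGAT and TATAAA were both at eif-3.B, against 5.63% and 5.34% of promoter summits. GAGAGA was at eef-1A.1, against 16.5%, and GCGCGC at eif-3.E, against 12.1%. CGCAAA was picked afterwards as the hexamer present at the most genes among all 2080 with reverse complements merged, and so carries no test. It occurred at 5 of 10, eif-3.B, eif-3.C, ife-2, eef-1A.2 and eef-1G, and at 15.2% of promoter summits. The printed stretches show it in 2 copies at eef-1A.2 and as its reverse complement at ife-2. Of the other hexamers none was at more than 3 of the 10. A match is a description of the letters and not a binding site.

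The G and C content of these stretches, the unprinted ones included, had a median of 52% at the 10 genes and 47.5% over the 711 promoter summits. It ran from 34.7% at eif-3.B, whose stretch holds the run of A and T seen in its first bases, to 56.4% at iff-2.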

How the data were processed

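ChIP-seq peak lists of 2 replicates of tagged CEH-88 in L1 larvae were analysed. Per the labels, the authors deposited IDR ranked and IDR thresholded lists on assembly ce11. For aligner, caller and depth nothing is given in the sources used here. The signal of each region is the caller's strength as deposited. The deposited score runs up to 1000, and no thresholded peak scored below 830. The whole-series ranked list with scores equal at all 1171 conservative peaks (848 in the other) was paired with that list. The 16 per-sample columns of both were not used.

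The annotation was Ensembl release 115 on WBcel235, which is the ce11 assembly, and sequence came from the RefSeq copy. Summits were assigned to promoter windows with Python 3.11.15, exact intervals came from scipy 1.17.1 and figures from matplotlib 3.10.9. Replicate signals are those of the strongest ranked region overlapping a peak by at least 1 bp, and of several peaks in a window the strongest was used. The assignment was tested on simulated data. RNA genes were sought within 250 bp.

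Named were all members with a summit in a thresholded list, the 5 others with the highest ranked region, and the bound genes of the pathway list; others were named after their values were seen. Members, lists and rules were chosen with earlier results of these data known. Alternatives are listed in the closing section.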

Additional observations from a re-analysis of the deposited data

How the results depend on the processing

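The count of 10 bound translation factor genes ranged from 9 to 11 over 9 alternatives. A window of 500 bp upstream gave 9 (3.78% of all genes), losing eif-2Bgamma, and counting only the nearest gene gave 9 (3.33%), losing eef-1A.1. A window of 2000 bp (6.09%) and any peak base in the window (5.1%) each gave 11, gaining ife-3. The other whole-series list (5.25%), a score of 1000 (4.02%) and the 5′-most start (4.4%) left it at 10. Without replicate 1 or 2, using the other's own list, it was 10, with eef-2 gained in both and ife-2 or eif-2Bgamma lost. In the replicates' own lists, a score of 1000 and any peak base were the 2 alternatives run, and gave 10 to 11 for replicate 1 and 10 for replicate 2. The shares of all genes under these 2 rules are not given for the replicates' lists, so these counts have no background beside them. The median signal of 219.3 was 85.5 to 151.7 in the single replicates, each on its own scale, so these values do not measure an effect of leaving one out. The 5 other translation genes became 2 with 500 bp upstream and 2 with the nearest gene only, losing abcf-2, ifet-1 and larp-1 in both, rose to 6 with 2000 bp, gaining pab-1, and were 4 to 5 without a replicate. No paired analysis was possible because there is 1 group. Depth is unknown, so weak regions and absent ones cannot be told apart.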
